A study of Mus musculus with 6 samples.

Results

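Tbr1, Fezf2, Cux2, Rorb, Tcf7l2, Gbx2, Lef1, Zic1 and Otp are transcription factor genes used to tell parts of the forebrain apart, and their transcripts were followed over 6 coronal sections of the mouse brain. These 9 genes, of 32285 in the tables, were given by name. Spatial RNA sequencing was done with the Visium assay, in which barcoded spots under the tissue capture transcripts, and each captured molecule is counted once by its unique molecular identifier (UMI). A spot can hold several cells of different types. The sections, 16 µm thick, came from frozen brains of male C57BL/6J mice, an inbred strain, with no allele or treatment named. With 2 males per age, the 3 ages were 6 months (young 1 and young 2), 18 months (middle 1 and middle 2) and 21 months (old 1 and old 2). Middle 2 and old 2 were on slide 2, and the other 4 sections on slide 1.

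In development these genes help to set the identity of neurons, and several stay on in the adult. In the cortex, Tbr1 (a T-box factor) and Fezf2 (a zinc finger factor) are known for deep-layer projection neurons, Cux2 (a homeodomain factor) for upper layers and Rorb (a nuclear receptor) for layer 4, the layer that receives thalamic input. Gbx2, a homeodomain factor, is required for thalamic neurons and their axons to form. Tcf7l2 and Lef1 are the DNA-binding partners of beta-catenin in Wnt signalling, and Tcf7l2 marks thalamic and habenular neurons and also maturing oligodendrocytes. Zic1 is a zinc finger factor of midline brain structures, and Otp is a homeodomain factor needed for neurons that make oxytocin, vasopressin and other peptides in the hypothalamus.

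Regions were groups of spots with like transcripts. Spots were clustered without the 9 genes and without the other transcription factor and Wnt genes listed here, and clusters were named from separate marker genes. This gave 3828 isocortex, 2520 thalamus and 1082 hypothalamus spots. A single marker sum per spot, with no clustering, put 80.1%, 92.7% and 92.6% of these spots in the same regions. In the other direction, 80.3%, 92.6% and 51.1% of the spots that marker sums put in isocortex, thalamus and hypothalamus were in those clusters, so marker sums gave a wider hypothalamus. Of the 3389 barcodes, which are grid positions, 1920 occurred in all 6 sections, so a shared barcode is not a shared cell. Section totals ran from 60939185 to 77557934 UMIs, with both old sections lowest. Young 1 had fewer thalamus spots (288) than the other sections (383 to 510) and 10 habenular spots against 36 to 50.

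The hypothalamus spots differed between sections in ways that did not follow age. The oxytocin precursor gene Oxt was at 1757 CPM (UMIs per 1000000 UMIs of those spots) in young 1, 349 in middle 1 and 8392 in old 1, and at 4.44 or less in the other sections. Pmch, the precursor of melanin-concentrating hormone, was at 6.37 CPM in young 1 and 5.0 in old 1, and between 5302 and 14731 in the other 4 sections. The hypothalamic values of young 1 and old 1 therefore come from spots with another mix of peptide precursor transcripts.

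Of the 9 genes, 7 were higher in the region they are known for than in both other regions, in every section and with no overlap over the 6 sections: Tbr1 and Fezf2 in isocortex, Tcf7l2, Gbx2, Lef1 and Zic1 in thalamus, and Otp in hypothalamus. Cux2 and Rorb, both known as cortical layer genes, were the exceptions, because thalamus spots held as much Cux2 as isocortex and more Rorb. Among all 15105 genes tested, 10.7% lay above the other regions in this way in isocortex, 8.52% in thalamus and 11.0% in hypothalamus, 30.2% in all. The 9 genes were picked as region genes, so their 7 of 9 is a description and is not read against these shares. Regions were made from the same counts, so no test is given for a difference between regions. In bulk counts of spots, fewer cells of a type and less RNA per cell cannot be told apart.

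**Figure D1:**
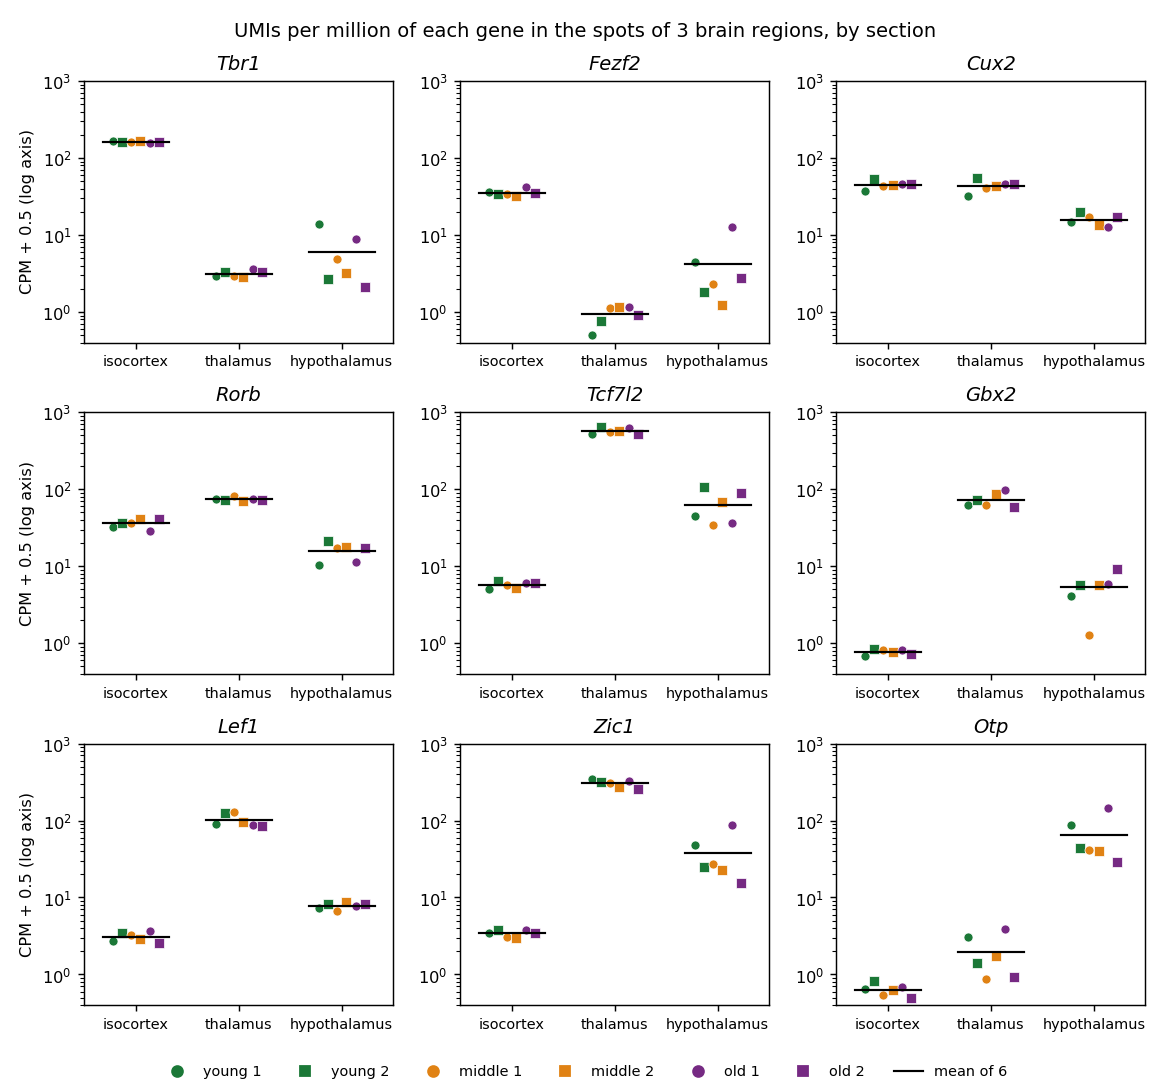
CPM (plus 0.5, log axis) of the 9 genes in isocortex, thalamus and hypothalamus spots, 1 point per section, coloured by age, with bars at the mean of 6 sections. Tcf7l2 stands at 515 or more in every thalamus and at 107 or less elsewhere, while the Cux2 points of isocortex and thalamus overlap.

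Tbr1 had the smallest SD relative to its mean of the 4 cortical genes. Its level in isocortex was 167 and 159 CPM at 6 months, 159 and 168 at 18 months, and 155 and 163 at 21 months, a mean of 162 ± 5.13 (SD, n = 6). In thalamus it was 2.66 ± 0.301 CPM, from 138 UMIs in all, so that isocortex was 60.9-fold higher. In hypothalamus it was 13.5 and 2.17 CPM at 6 months, 4.36 and 2.71 at 18 months, and 8.47 and 1.61 at 21 months. Young 1 and old 1, the sections richest in Oxt, were the high ones there, and isocortex still lay 29.6-fold above the hypothalamic mean. The lowest isocortex value and the highest value elsewhere did not overlap.

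Fezf2 was at 35.2 and 33.7 CPM at 6 months, 34 and 31.5 at 18 months, and 41.3 and 34.9 at 21 months in isocortex, a mean of 35.1 ± 3.28 (SD, n = 6). Thalamus held 23 Fezf2 UMIs over all sections, or 0.441 CPM on average. None was counted in young 1, where a count of 0 allows up to 0.403 CPM (3 UMIs, counting error only). In hypothalamus Fezf2 was at 3.98 and 1.3 CPM at 6 months, 1.8 and 0.739 at 18 months, and 12.3 and 2.25 at 21 months. Old 1 stood alone there, and without it the mean was 2.02 ± 1.24 (SD, n = 5).

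Cux2 did not separate isocortex from thalamus. It was at 36.3 and 52.3 CPM at 6 months, 43.1 and 43.9 at 18 months, and 45.2 and 46.1 at 21 months in isocortex and at 31.3 and 54.8 CPM at 6 months, 40.7 and 42.8 at 18 months, and 45.7 and 45.5 at 21 months in thalamus. The means, 44.5 ± 5.17 and 43.5 ± 7.68 (SD, n = 6), differed by less than the spread between sections, and isocortex was the higher in 4 of 6 sections. Hypothalamus was lower, at 15.4 ± 2.73 CPM, and its highest section lay below the lowest of the other regions. Rorb was higher in thalamus in all 6 sections. Its values were 74.1 and 71.3 CPM at 6 months, 81.8 and 69.2 at 18 months, and 75.2 and 71.7 at 21 months in thalamus and 32 and 36.2 CPM at 6 months, 36.2 and 40.3 at 18 months, and 28 and 40.3 at 21 months in isocortex. The lowest thalamus section lay above the highest isocortex section, a 2.08-fold difference of means, and hypothalamus was lowest at 15.4 ± 4.2.

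Within isocortex each of the 4 cortical genes had its own layer. Spots of layers 2/3, 4, 5 and 6 were told apart by layer markers that did not include these genes. Tbr1 was highest in layer 6, at 259 and 246 CPM at 6 months, 238 and 239 at 18 months, and 239 and 237 at 21 months. It was at 143 ± 4.17 in layer 2/3, 141 ± 11.5 in layer 4 and 104 ± 5.53 in layer 5 (SD, n = 6). No other layer reached the lowest layer 6 section, and layer 5 lay below all others, while layers 2/3 and 4 did not differ beyond their spread.

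Fezf2 was highest in layer 5, at 85.2 and 79.9 CPM at 6 months, 85.7 and 74.6 at 18 months, and 94.6 and 84.1 at 21 months. Layer 6 had 34.7 ± 5.96 and layer 4 25.6 ± 5.04, with overlap between these, and layer 2/3 had 6.85 ± 1.47. No other layer reached the lowest layer 5 section. Cux2 ran the other way, highest in layer 2/3 at 73.6 and 96.7 CPM at 6 months, 77.5 and 80.7 at 18 months, and 83.3 and 82.6 at 21 months. Layer 4 followed at 52.6 ± 6.56, then layer 6 at 22.5 ± 3.92 and layer 5 at 11.7 ± 3.13. Every section of layer 2/3 lay above every section of the other layers.

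Rorb was highest in layer 4, at 83.6 and 88.7 CPM at 6 months, 98.7 and 105 at 18 months, and 74.9 and 98.9 at 21 months. It was 5.22-fold lower in layer 5 (17.6 ± 3.07) and 9.09-fold lower in layer 6 (10.1 ± 1.56), with layer 2/3 between at 34 ± 6.51. No layer overlapped another in Rorb. The position of Rorb relative to thalamus thus turned on the layer. Layer 4 was 1.24-fold above thalamus as a whole and higher in 5 of 6 sections, with old 1 the exception. For Cux2, layer 2/3 was 1.9-fold above thalamus, in 6 of 6 sections with no overlap.

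**Figure D2:**
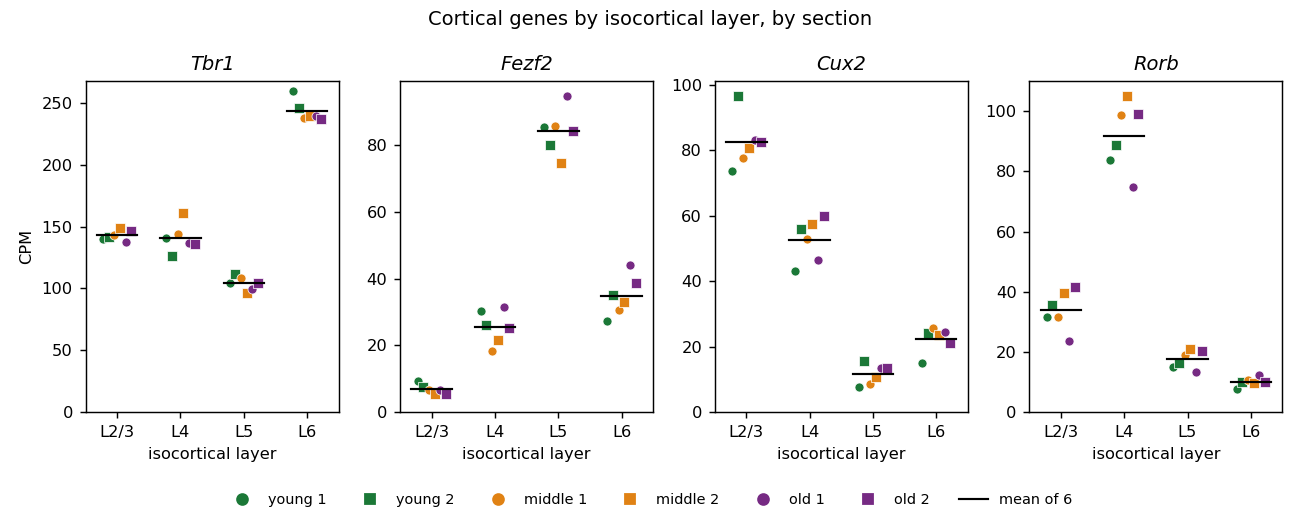
CPM of Tbr1, Fezf2, Cux2 and Rorb in spots of isocortical layers 2/3, 4, 5 and 6 (L2/3 to L6), 1 point per section, with bars at the mean of 6. The means peak at 243 in layer 6 for Tbr1, 84.0 in layer 5 for Fezf2, 82.4 in layer 2/3 for Cux2 and 91.7 in layer 4 for Rorb.

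The 4 thalamic genes lie on 4 chromosomes. Positions are those of GENCODE M21 on GRCm38 (mm10): Tcf7l2 at chr19:55741820-55933654 on the plus strand, Gbx2 at chr1:89927956-89931179 on the minus strand, Lef1 at chr3:131110471-131224356 on the plus strand and Zic1 at chr9:91358058-91365810 on the minus strand. The others are Tbr1 at chr2:61802930-61814114 and Otp at chr13:94875602-94885130 on the plus strand, and Fezf2 at chr14:12342094-12348189, Cux2 at chr5:121856366-122050102 and Rorb at chr19:18930605-19111196 on the minus strand. Zic1 overlaps Zic4 on the opposite strand, Gbx2 overlaps D130058E05Rik, and Lef1 overlaps Gm43352 and Cux2 overlaps Gm3970 and Gm15637 in the same way. Tcf7l2 shares its strand with Ppnr and Lef1 with Gm42449. Whether strand was used in counting is not given in the sources used here, so reads of such pairs may be mixed.

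Since Tcf7l2 and Lef1 themselves bind DNA, the bases before the first RefSeq start of each thalamic gene (GRCm38.p6) are shown, up to the first annotated exon base. They are written 5′ to 3′ on the strand of the gene, in the order chr19:55741560-55741809, chr1:89931180-89931426, chr3:131110047-131110296 and chr9:91365811-91366018. Capitals would mark a TCF/LEF core motif (CTTTGA or CTTTGT, either strand), and there are none.
Tcf7l2: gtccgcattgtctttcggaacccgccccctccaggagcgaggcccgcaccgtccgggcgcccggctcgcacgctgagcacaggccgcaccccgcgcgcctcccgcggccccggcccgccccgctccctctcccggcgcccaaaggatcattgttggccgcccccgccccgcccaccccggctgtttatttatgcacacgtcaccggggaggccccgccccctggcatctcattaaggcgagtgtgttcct
Gbx2: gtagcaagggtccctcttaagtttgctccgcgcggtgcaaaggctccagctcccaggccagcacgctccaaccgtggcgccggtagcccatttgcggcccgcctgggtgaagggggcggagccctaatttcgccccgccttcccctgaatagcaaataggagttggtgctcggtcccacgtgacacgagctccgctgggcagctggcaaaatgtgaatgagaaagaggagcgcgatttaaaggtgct
Lef1: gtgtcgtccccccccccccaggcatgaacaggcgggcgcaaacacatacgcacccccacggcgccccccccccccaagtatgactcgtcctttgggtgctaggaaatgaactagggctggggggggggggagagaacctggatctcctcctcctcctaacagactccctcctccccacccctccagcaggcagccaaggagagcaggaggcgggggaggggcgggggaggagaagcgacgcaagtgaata
Zic1: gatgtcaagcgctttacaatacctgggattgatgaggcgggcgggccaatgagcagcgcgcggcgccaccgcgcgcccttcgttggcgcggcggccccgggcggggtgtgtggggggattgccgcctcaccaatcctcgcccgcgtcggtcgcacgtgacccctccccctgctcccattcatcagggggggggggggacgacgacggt
Of 32817 RefSeq promoters, 27.6% hold such a motif in the 250 bases before the start. Later RefSeq starts of 2 of these genes do hold it: 1 match in the second window of Tcf7l2 and 3 in the fourth window of Lef1. The homeodomain core TAATTA, found in 4.85% of promoters, was in none of the 4 first windows either. A match is a description of letters, and its absence from a window says nothing of the factor.

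Tcf7l2 was at 520.5 and 640.0 CPM at 6 months, 561 and 576 at 18 months, and 625 and 515 at 21 months in thalamus, a mean of 573 ± 52 (SD, n = 6). Isocortex had 5.24 ± 0.538 and lay 109-fold lower. Hypothalamus spots held 43.8 and 107 CPM at 6 months, 33.6 and 67.3 at 18 months, and 36.2 and 88.6 at 21 months, a wide range whose top lay far below the lowest thalamus. The fold between the means was 9.14.

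Gbx2 was at 61.6 and 71.4 CPM at 6 months, 62.1 and 86.5 at 18 months, and 96.4 and 58.6 at 21 months in thalamus, with hypothalamus at 4.8 ± 2.59 and isocortex at 0.271, the last from 40 UMIs in 6 sections. Thalamus was 15.1-fold above hypothalamus. Lef1 was at 90.5 and 125 CPM at 6 months, 127 and 94.6 at 18 months, and 87.2 and 83.9 at 21 months in thalamus, 13.8-fold above hypothalamus (7.32 ± 0.738) and 39.3-fold above isocortex (2.58 ± 0.43). Zic1 was at 341 and 315 CPM at 6 months, 307 and 271 at 18 months, and 328 and 256 at 21 months in thalamus against 2.94 ± 0.342 in isocortex. In hypothalamus it was at 47.4 and 24.3 CPM at 6 months, 26.9 and 22.2 at 18 months, and 86.6 and 14.8 at 21 months, again highest in old 1 and young 1. Thalamus was 8.18-fold above that mean, and no hypothalamus section reached the lowest thalamus.

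Inside thalamus the genes parted. A cluster of 1608 spots was led by Prkcd, a protein kinase gene of relay nuclei. A cluster of 912 spots was led by Gbx2 and then Tcf7l2, although neither was used to cluster. Calb2, the gene of the calcium buffer calretinin, came next. It was the highest of the region markers there, so the cluster is called Calb2-led. Gbx2 was at 96.6 and 128 CPM at 6 months, 130.4 and 178 at 18 months, and 152 and 119 at 21 months in the Calb2-led spots and 34.8 ± 6.72 in the Prkcd-led spots, a 3.85-fold difference with no overlap. Tcf7l2 was also higher in the Calb2-led spots, 1.5-fold (722 ± 66.7 against 479.8 ± 42.8). Lef1 and Rorb leaned the other way in 6 of 6 sections. Lef1 was at 114 ± 15.2 CPM in Prkcd-led and 82.4 ± 24.1 in Calb2-led spots, and Rorb at 83.7 ± 3.02 and 59.1 ± 10.4. Over all sections the Lef1 ranges overlapped and the Rorb ranges did not. Zic1 did not differ beyond its spread, at 301 ± 17.6 and 304 ± 72.8.

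The habenula is a small paired nucleus above the thalamus. The habenular cluster, 229 spots led by genes such as Gpr151 and Pou4f1, was kept apart from thalamus. Zic1 reached its highest level of any cluster there, 569.5 and 562 CPM at 6 months, 628 and 521 at 18 months, and 748 and 572 at 21 months. This was 2.0-fold above Prkcd-led thalamus with no overlap. Tcf7l2 was lower than in thalamus, at 275 ± 39.6 CPM, and so were Lef1 (22.3 ± 2.86), Rorb (10.7 ± 3.38) and Cux2 (14 ± 5.98). Gbx2 was at 13.7 ± 9.34 CPM, and at 10.2 ± 3.81 (SD, n = 5) without young 1, whose 10 spots gave the highest value. Zic1 and Tcf7l2 were at 606 ± 88 and 277 ± 44.1 without that section.

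**Figure D3:**
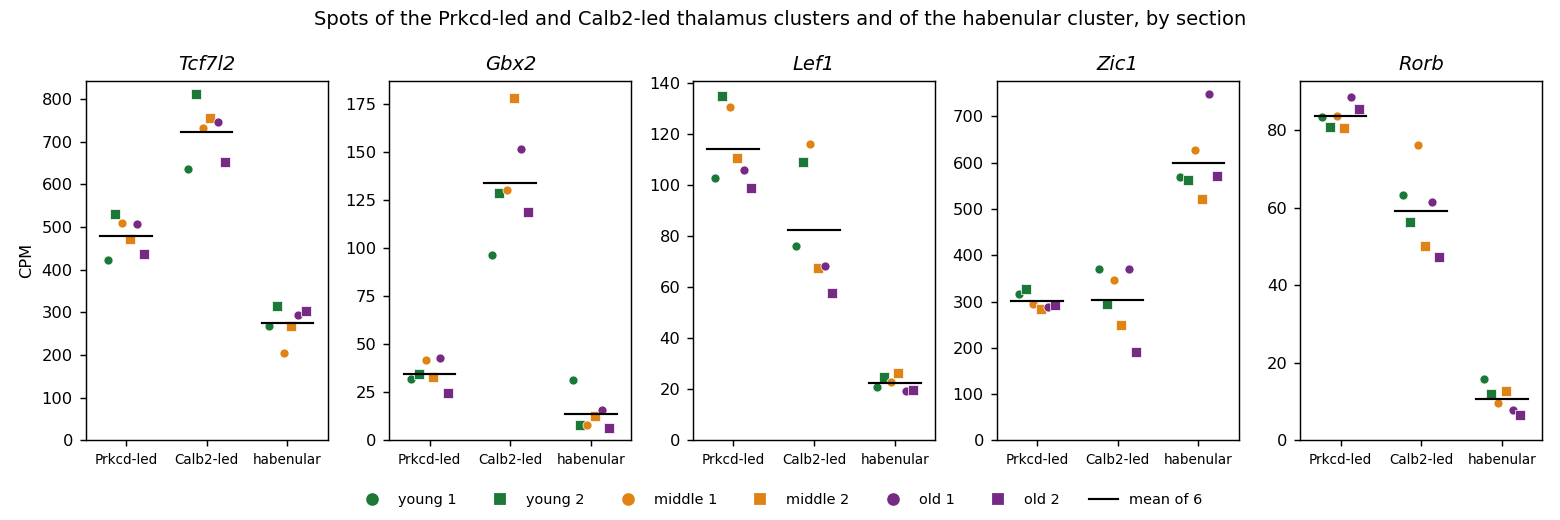
CPM of Tcf7l2, Gbx2, Lef1, Zic1 and Rorb in the Prkcd-led and Calb2-led thalamus clusters and in the habenular cluster, 1 point per section, with bars at the mean of 6. Gbx2 peaks in the Calb2-led spots (mean 134), Zic1 in the habenular spots (mean 600.1), and Lef1 and Rorb in the Prkcd-led spots.

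Otp had its highest level in hypothalamus, and of the 9 genes in their own regions it had the largest SD relative to its mean. In hypothalamus it was at 86.9 and 43.4 CPM at 6 months, 40.5 and 39.2 at 18 months, and 146 and 28.3 at 21 months, a mean of 64 ± 44.9 (SD, n = 6), and 47.7 ± 22.6 (SD, n = 5) without old 1. Thalamus had 1.47 CPM and isocortex 0.137, from 21 UMIs in 6 sections, so hypothalamus was 43.5-fold above thalamus. Old 1 and young 1 were the high sections, and they were also the high sections for Oxt and for Avp, the vasopressin precursor, at 4328 and 2438 CPM. Middle 1 came next for both, with Oxt at 349 and Avp at 1196 CPM. Its Otp (40.5) nonetheless lay below that of young 2 (43.4), where Oxt was at 3.04 and Avp at 0.868. Sim1, a partner of Otp in forming these neurons, was at 30.03 CPM in old 1 and 16.3 in young 1. In the rest it was at 4.93 to 13.9, with 7.18 in middle 1 and 13.9 in young 2. Whether the mix of nuclei in the spots sets the level of Otp was not tested.

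A further cluster of 935 spots, led by Nts, Baiap3 and Hap1, carried general hypothalamic markers but had 0 of the 10 peptide precursor markers among its 50 leading genes, and was not counted as hypothalamus. Otp was at 21.7 and 19.9 CPM at 6 months, 28.1 and 7.87 at 18 months, and 3.44 and 16.8 at 21 months there, with old 1 now the lowest section. Hypothalamus was 3.93-fold above it with all 6 sections, while without old 1 the means were nearer, at 47.7 ± 22.6 and 18.9 ± 7.39 CPM (SD, n = 5). Tbr1 was at 20.03 ± 8.19 CPM in that cluster, above hypothalamus in 6 of 6 sections, while Tcf7l2 was 6.16-fold lower (10.2 ± 2.41). With this cluster added to hypothalamus, which was decided after the data had been seen, 7 genes again had every section highest in their own region.

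**Figure D4:**
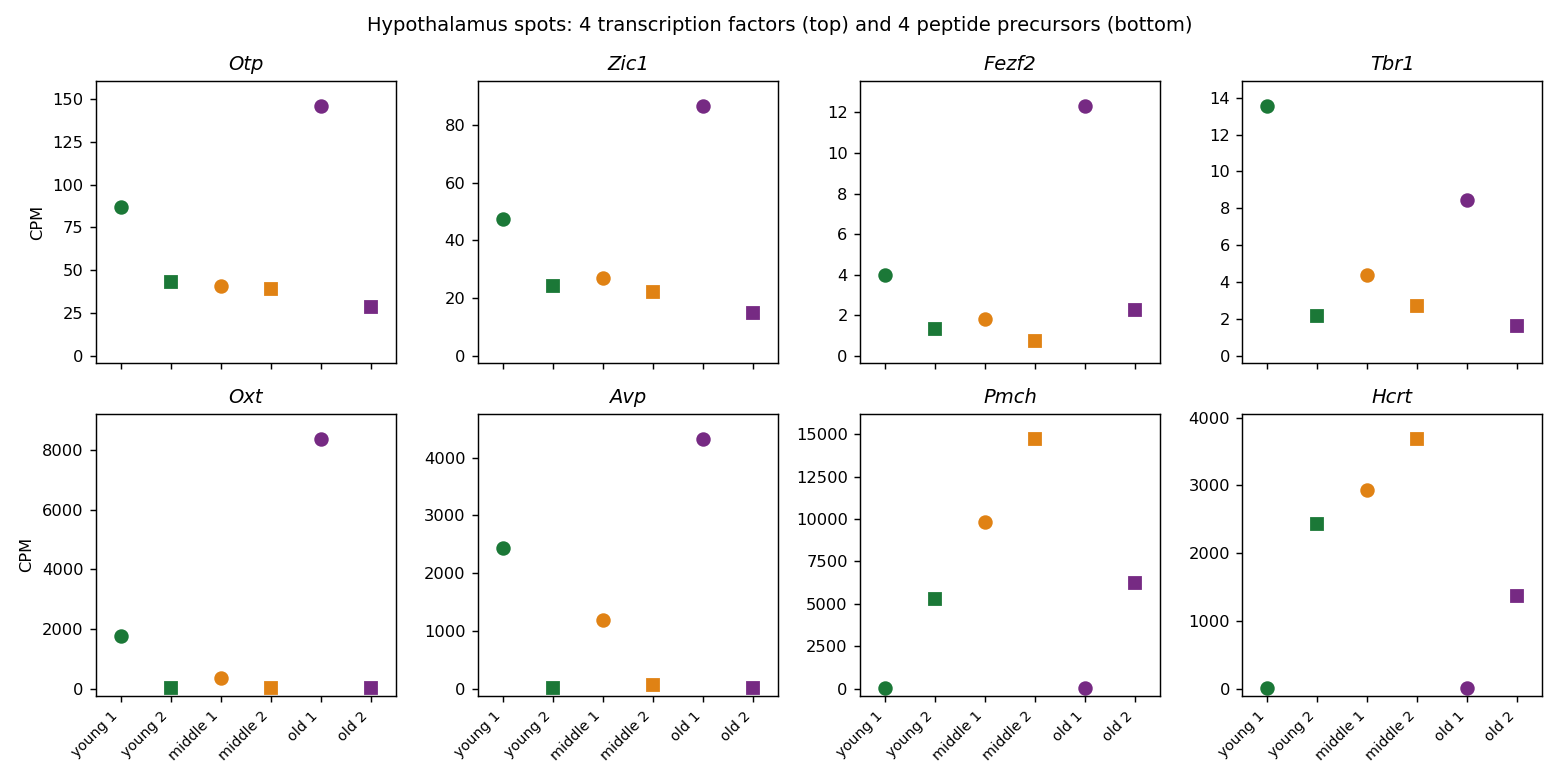
CPM in hypothalamus spots of Otp, Zic1, Fezf2 and Tbr1 (top) and of the peptide precursors Oxt, Avp, Pmch and Hcrt (bottom), 1 point per section, with young in green, middle in orange and old in purple. Old 1 is highest for Otp, Zic1, Fezf2, Oxt and Avp, young 1 is highest for Tbr1, and both lie far below the other 4 sections for Pmch and Hcrt.

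Outside the 3 regions several genes had a second site. Tbr1 was at 114 ± 32.9 CPM in amygdala and olfactory cortex and 46.6 ± 6.88 in hippocampal formation, and Fezf2 at 35.3 ± 9.46 and 15.8 ± 2.37. Zic1 was at 106 ± 16.2 CPM in meninges and 64.6 ± 17.1 in choroid plexus and ventricle spots. Cux2 was at 43.4 ± 16.8 CPM in meninges, where Tbr1 was at 52.5 ± 3.13. Whether cortex next to the meninges gave these transcripts was not tested. Otp in choroid plexus and ventricle spots was 29.2 CPM in old 1 and 3.36 or less in the other sections.

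Tcf7l2 in white matter was 38.9 and 29 CPM at 6 months, 43.2 and 39.8 at 18 months, and 34 and 32.2 at 21 months. The summed level of 8 oligodendrocyte genes was 38275 ± 3971 CPM in white matter, 5927 ± 421 in thalamus, 3729 ± 799.8 in hypothalamus and 2497 ± 221 in isocortex. Thalamus was 15.8-fold above white matter in Tcf7l2 although white matter had the larger oligodendrocyte sum. The summed level of 8 endothelial genes was 678 ± 86.9 CPM in meninges and 338 ± 37.3 in thalamus, where Lef1 was at 13.7 ± 3.43 and 101 ± 19.4.

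As shares of all UMIs of a gene in a section, thalamus held 90.02% ± 2.49 (SD, n = 6) of Gbx2, 80.9% ± 2.16 of Tcf7l2, 75.5% ± 3.54 of Lef1 and 65.2% ± 3.92 of Zic1. Thalamus held 11.9% ± 1.56 of the UMIs of all genes. Isocortex held 66.5% ± 2.98 of Tbr1 and 64.3% ± 5.78 of Fezf2, against 33.5% ± 3.19 of all UMIs, and a further 20.3% ± 2.3 of Tbr1 lay in clusters with no name. Hypothalamus held 56.8% ± 10.2 of Otp and the Baiap3 and Hap1 cluster 26.2% ± 13.2, with 4.27% ± 1.06 and 6.32% ± 1.86 of all UMIs. For Cux2 the shares were 47.9% ± 3.27 in isocortex and 16.6% ± 3.19 in thalamus, and for Rorb 40.2% ± 3.21 and 29.8% ± 4.21.

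The share of spots with at least 1 UMI was compared after each spot had been thinned to 5000 UMIs. Tcf7l2 was found in 90.4% ± 1.67 (SD, n = 6) of thalamus spots, 19.5% ± 6.62 of hypothalamus and 2.7% ± 0.512 of isocortex spots. Zic1 was found in 73.2% ± 4.82 of thalamus, Lef1 in 40.5% ± 4.36 and Gbx2 in 25.3% ± 3.22, with 1.47% ± 0.448, 1.15% ± 0.375 and 0.16% ± 0.143 in isocortex, which serves as the background. Tbr1 was found in 53.2% ± 2.47 of isocortex and 0.836% ± 0.429 of thalamus spots, and Otp in 20.7% ± 9.11 of hypothalamus and 0.0505% ± 0.0783 of isocortex spots. Rorb was found in 29.1% ± 1.85 of thalamus and 14.5% ± 1.47 of isocortex spots. Unthinned, the shares were higher, from 44.3% ± 15.4 for Otp to 99% ± 0.524 for Tcf7l2 in their own regions. For Cux2 the shares in isocortex and thalamus were 16.8% ± 1.86 and 19.8% ± 4.32 thinned, and 60.2% ± 3.6 and 56.9% ± 5.95 unthinned, so their order turned on depth. Thinning left out 8 isocortex, 14 thalamus and 11 hypothalamus spots.

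Over the 26 clusters, the levels of the thalamic genes followed each other. The Pearson correlation of log2(CPM + 0.5) was 0.95 between Tcf7l2 and Lef1, 0.90 between Tcf7l2 and Gbx2 and 0.87 between Tcf7l2 and Zic1. Tbr1 and Fezf2 had r = 0.88, and Cux2 and Rorb r = 0.76, although they peak in different layers. Clusters share sections and depth, so these values are descriptions. Of the genes named next, Amotl1, Synpo2, Vxn, Avp and Dlk1 were among the markers that named the clusters. They were not kept out of the clustering, so part of their likeness may be built in. Among 9701 genes with a mean of at least 10 CPM, those most like Tcf7l2 were Shox2 (r = 0.96), Lef1 (r = 0.95), Gdf11 (r = 0.94), and those most like Lef1 were Shox2 (r = 0.96), Tcf7l2 (r = 0.95), Creg1 (r = 0.93). For Gbx2 they were Tcf7l2 (r = 0.90), Amotl1 (r = 0.90), Synpo2 (r = 0.86), and for Zic1 Tcf7l2 (r = 0.87), Gdf11 (r = 0.86), Amotl1 (r = 0.86). For Tbr1 they were Klf10 (r = 0.94), Kcnv1 (r = 0.92), Vxn (r = 0.92), and for Fezf2 Klf10 (r = 0.90), Dkk3 (r = 0.90), Vxn (r = 0.90). For Cux2 they were Rorb (r = 0.76), Nr2f1 (r = 0.74), Camk2n2 (r = 0.70), for Rorb Extl3 (r = 0.91), Nr1d1 (r = 0.85), Rora (r = 0.80) and for Otp Avp (r = 0.88), Mesd (r = 0.88), Dlk1 (r = 0.87).

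Relatives and pathway genes were read the same way. In the counts that follow, a gene is highest in a region only where it did not overlap the other regions over the 6 sections. Rora, a nuclear receptor and relative of Rorb, was at 376 ± 60.1 CPM in thalamus and 59.6 ± 4.48 in isocortex. Cux1, the relative of Cux2, was at 71.5 ± 6.01 and 61.5 ± 6.21, with overlap. Of 18 other cortical transcription factors 14 were highest in isocortex, such as Emx1, a homeodomain factor of the developing cortex (24.3 ± 1.89 CPM against 0.349 ± 0.198 in thalamus). Of 11 other thalamic and habenular factors 10 were tested and 7 were highest in thalamus, such as Lhx9 at 44.2 ± 10.5 CPM. Of the genes that stand in both lists, Foxp2 and Etv1 were highest in thalamus and Nr4a2 in isocortex. Of 24 other hypothalamic factors 22 were tested and 7 were highest in hypothalamus, Sim1 and Isl1 among them, and 1, Lhx6, was highest in isocortex. Fezf1 had its highest mean in hypothalamus (15.9 ± 17.4 CPM against 0.228 ± 0.185 in thalamus) but overlapped. Of all 15105 genes tested, 10.7% were highest with no overlap in isocortex, 8.52% in thalamus and 11.0% in hypothalamus. The lists were chosen with earlier results of these data known, so their counts are not read against these shares.

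The Wnt pathway is the setting in which Tcf7l2 and Lef1 act. Of 16 of its genes, 8 were highest in thalamus with no overlap, 3 in isocortex and 0 in hypothalamus. Among all 15105 genes tested the shares were 8.52%, 10.7% and 11.0%. The list was chosen with earlier results of these data known, so its counts are not read against these shares. Activity of the pathway was not tested. The 8 of thalamus were the ligands Wnt9b, Wnt3 and Wnt4, the receptor Fzd1, beta-catenin (Ctnnb1) and the feedback inhibitors Nkd1, Notum and Rnf43. Wnt9b was at 14.4 ± 4.09 CPM in thalamus and 0.127 ± 0.0528 in isocortex, and Wnt3 at 18.7 ± 5.19 and 0.669 ± 0.105. Axin2 and Sp5, both common readouts of the pathway, were not among the 8. The 3 of isocortex were Dkk3, Fzd3 and Tle4.

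The second question was whether the restriction holds over the 3 ages. It did in each section for the 7 genes above, so in both sections of every age. As a log2 ratio of the own region to the mean of the other regions (0.5 CPM added), Tcf7l2 ran from 4.48 to 5.38, Gbx2 from 4.52 to 5.94, Lef1 from 4.04 to 4.78 and Zic1 from 4.18 to 5.13. Tbr1 ran from 4.71 to 5.96, Fezf2 from 3.43 to 4.85 and Otp from 5.25 to 6.50. Cux2 (0.66 to 0.91) was above 0 in every section and Rorb (-0.09 to 0.22) was on both sides of it. For both genes this ratio averages unlike comparisons. The mean log2 ratio of isocortex to thalamus was 0.043 for Cux2 and -1.06 for Rorb. Against hypothalamus it was 1.51 and 1.21. The lowest ratios of Fezf2, Lef1 and Zic1 and the highest of Otp were all from old 1. Old 2 gave the lowest ratios of Tcf7l2 and Gbx2 and the next to lowest of Lef1, so 5 of the 7 genes had their lowest ratio in an old section. In the other direction, old 1 was highest for Tcf7l2 and old 2 for Zic1 and Tbr1. The old sections thus stood on both sides of the others, and the tests of restriction by age follow.

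No age test called any of the 9 genes. The test was edgeR's quasi-likelihood F-test over 3 ages with Benjamini-Hochberg adjustment at 0.05, and 0 of 9 were called in whole sections, where 0.0736% of all genes were. In isocortex 0 of the 7 tested were called (0.176% of all genes), with Gbx2 and Otp too low to test, in thalamus 0 of 8 (0.0289%), with Fezf2 too low, and in hypothalamus 0 of 9 (0.0485%). For a change of restriction, tested as region by age terms with section as a block, 0 of 9 were called for isocortex (0.0265%), thalamus (0.0132%) and hypothalamus (0.0%). At an unadjusted p under 0.05 the count was also 0 in each of the 7 tests. Of all genes, 1463 of 17673 passed that cutoff in whole sections, 1184 of 15343 in isocortex, 525 of 13832 in thalamus and 681 of 12382 in hypothalamus, and 554, 537 and 944 of 15105 for restriction to these regions. With so few genes, a count of 0 is near those shares. For levels, the p-values rest on the spread between 2 sections per age, with error estimates that borrow from other genes. For restriction, they rest on the spread of the contrast between regions over these sections.

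The sizes and errors say what could be seen. In isocortex the log2 change from 6 to 21 months was -0.07 (SE 0.06) for Tbr1, 0.11 (SE 0.09) for Fezf2, 0.01 (SE 0.14) for Cux2 and -0.04 (SE 0.17) for Rorb. In thalamus it was -0.09 (SE 0.12) for Tcf7l2, 0.16 (SE 0.25) for Gbx2 and -0.24 (SE 0.14) for Zic1. For Otp in hypothalamus it was 0.32 with an SE of 0.98, an error larger than the change. The median size of the log2 change was 0.12 over the 8 genes tested in thalamus and 0.12 over all genes there, and 0.32 over the 9 genes and 0.16 over all genes in hypothalamus.

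Lef1 in thalamus came closest among the genes in their own region, with a log2 change of -0.40 (SE 0.17) at 21 months and 0.02 (SE 0.17) at 18 months. The edgeR F-test gave an adjusted p = 0.997. Both old sections lay below the 4 others, by a small margin. The change at 21 months was -0.21 without young 2 and -0.56 without young 1. On slide 1 the values were 90.5 and 125 CPM in young, 127 in middle and 87.2 in old, and on slide 2 94.6 in middle and 83.9 in old. The call of Lef1 appeared in the fit with no filter on low counts, with adjusted p = 0.0282 (edgeR), where 230 genes of thalamus were called in place of 4. In the same unfiltered setting Fezf2 was called in hypothalamus, where old 1 stood alone.

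**Figure D5:**
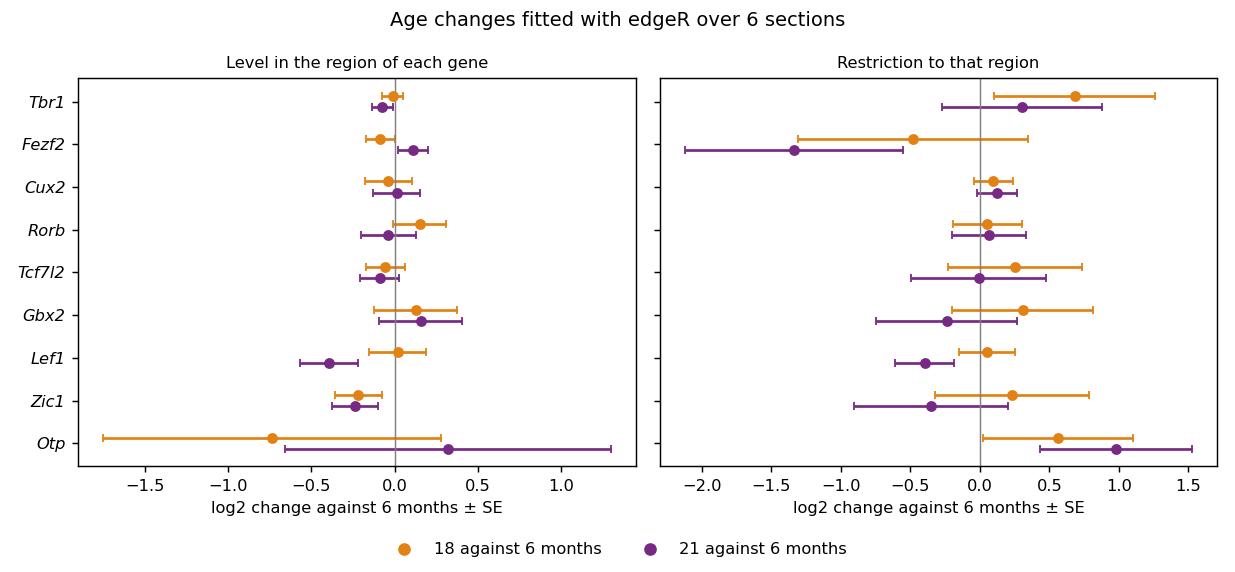
Fitted log2 changes against 6 months, with bars of 1 SE, at 18 months (orange) and 21 months (purple): level in the region of each gene (left) and restriction to that region (right). Most intervals cover 0, and the widest belong to Otp for level and to Fezf2 for restriction.

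Of the related lists, 0 genes were called in any of the 7 age tests. Of the 18 cortical factors, 5 had an unadjusted edgeR p under 0.05 in isocortex, 1 of them higher at 21 months, with a smallest adjusted p of 0.415 (edgeR), where 1184 of all 15343 genes had such a p. In whole sections 6 of the 18 did, 0 of them higher at 21 months, against 1463 of 17673. Of the 15 Wnt genes tested in thalamus, 1 did, and it was higher at 21 months, against 525 of all 13832 genes. There the median log2 change of the 15 was -0.14 against 0.00297 for all genes.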

How the data were processed

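The authors deposited raw UMI counts per gene and spot for each section. The headers of the matrices name Space Ranger 1.3.1, while the submitters' processing notes list Space Ranger 3.1 and mm10. The members and gene lists were chosen with earlier results of these data known. Spots with at least 500 UMIs were kept (16741, with 2 left out). With Python 3.11.15, scikit-learn 1.9.0 and leidenalg 0.10.2, 2000 variable genes, without 84 listed factor and Wnt genes, were scaled in each section, reduced to 30 components and clustered (20 neighbours, Leiden resolution 0.8), giving 26 clusters. A cluster was named where at least 3 markers of a region stood among its 50 leading genes, at least 1 in the top 10, and at least 2 times as many as for the next region. Hypothalamus also needed 3 peptide precursor genes, and a thalamic cluster with 3 of 4 habenular markers was kept apart. This rule was set after the clusters had been seen. The 5 clusters without a name held 2203 spots. No doublet caller was run on spots.

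Counts were summed per section and region, so the section is the replicate, and levels are CPM of these sums. Age was tested with edgeR 4.0.16 in R 4.3.3 (TMM, filterByExpr, robust quasi-likelihood F-test over 3 ages, Benjamini-Hochberg at 0.05), leaving 3 residual degrees of freedom, or 6 over the 18 region sums of the restriction fit. The fit was also run on simulated data. The outcome is not reported here, so how small a change it could find is not stated. Genes most like a member were the 3 of highest correlation over clusters. DESeq2 1.42.0, RLE factors, no filter, slide and replicate blocks, other resolutions, marker sums, another pseudocount (2 CPM), other thinning and leaving out each section were tried. Wider hypothalamus and thalamus regions were added after the data had been seen. The smallest region sum of a section was 2303279 UMIs, in hypothalamus. Results for some listed genes are not reported here.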

Additional observations from a re-analysis of the deposited data

How the results depend on the processing

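The ratios between regions mostly depended little on the choices. Of the restriction ratios under the alternatives, 104 stayed within 1 SD between sections, 12 moved further and 1 changed sign: Rorb, at -0.024 with region sums thinned to equal depth against 0.079. For Rorb this ratio averages a higher thalamus with a lower hypothalamus, so its sign says little. With regions from marker sums, or with the habenular cluster added to thalamus, 8 of 9 genes were highest in their own region in every section, and 7 under the others.

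The count of genes called for age did depend on them. With no filter on low counts 72 genes were called in whole sections, 313 in isocortex, 230 in thalamus and 132 in hypothalamus, and 84, 118 and 168 for restriction to these regions. Of the 9 genes, 1 was then called in thalamus (Lef1), 1 in hypothalamus (Fezf2), 1 for restriction to thalamus (Zic1, adjusted p = 0.0394, edgeR) and 2 for restriction to hypothalamus (Fezf2 and Zic1). DESeq2 called 146 in whole sections, 22 in thalamus and 12 for restriction to hypothalamus. With slide as a block the counts were 5 in whole sections, 10 in isocortex, 2 in thalamus, and 1 each for restriction to thalamus and hypothalamus. With the habenular cluster in thalamus, chosen after seeing the data, 12 were called. The cause was not tested.

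The deviations of sections numbered 1 from their group means had a correlation over 0.1 in 2 of 3 pairs (r = -0.058 for young 1 and middle 1, 0.314 for young 1 and old 1, 0.291 for middle 1 and old 1, over 5290 genes). The pairing asked for all 3, so the numbers were not taken to pair the sections. With the replicate block 55 genes were called in hypothalamus and 5 for its restriction, and 0 of the 9 genes.

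Leaving out 1 section at a time gave 4 to 22 genes called in whole sections, 22 to 42 in isocortex, 3 to 22 in thalamus (22 without middle 2) and 12 to 49 in hypothalamus (49 without old 2). For restriction it gave 3 to 4, 1 to 23 (23 without middle 2) and 0 to 16 (16 without old 2). None of the 9 genes was called in any of these fits.

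Several of the changes from 6 to 21 months changed sign with the setting. With slide as a block the log2 change of restriction was -0.055 for Tbr1, -0.058 for Rorb, 0.365 for Tcf7l2 and 0.163 for Gbx2. That of Tcf7l2 was 0.016 with DESeq2 and 0.0068 at resolution 0.5. Cux2 was at -0.012 in isocortex at resolution 0.5, and at -0.0040 for restriction with the wider hypothalamus, and Rorb at -0.098 with marker sums. Leaving out 1 section at a time, the change of level ran from -0.0115 to 0.22 for Fezf2, -0.21 to 0.27 for Cux2, -0.32 to 0.21 for Rorb, -0.22 to 0.024 for Tcf7l2, -0.24 to 0.45 for Gbx2 and -1.26 to 1.08 for Otp. It kept its sign for Tbr1 (-0.13 to -0.015), Lef1 (-0.56 to -0.21) and Zic1 (-0.42 to -0.090). The change of restriction ran from -0.57 to 1.15 for Tbr1, -0.12 to 0.20 for Rorb, -0.37 to 0.53 for Tcf7l2, -0.60 to 0.21 for Gbx2 and -0.68 to 0.30 for Zic1, and kept its sign for Fezf2 (-3.12 to -0.48), Cux2 (0.034 to 0.24), Lef1 (-0.45 to -0.24) and Otp (0.50 to 2.09). Of the changes of each gene in its own region or in its restriction to it, under all alternatives, 244 kept sign and side of the threshold, 29 changed sign and 2 passed the threshold.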
